A study of Danio rerio with 16 samples.

Results

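A set of 23 genes had lower RNA levels in testes of zebrafish given 17α-ethinylestradiol (EE2), a synthetic estrogen, than in control testes, and this held in diploid and in triploid males. The members were chosen on these libraries by 3 conditions. Their level is given in CPM, the read pairs of a gene per 1000000 pairs counted in the library. The mean in diploid controls had to be at least 2 CPM, the ratio of the EE2 mean to the control mean had to be at most 0.6 in each ploidy, and every EE2 library had to lie below every control library of its ploidy. Of the 32520 genes counted, 19184 reached the mean. The other conditions were met by 172 of them in diploids (0.897%), by 113 in triploids (0.589%) and by 31 in both (0.162%). Those 31 were 18.02% of the diploid genes and 27.43% of the triploid genes. Then 8 genes were left out by name, most of them of steroid synthesis: star, cyp17a1, hsd3b1, cyp11c1, insl3, prok2, nr1d1 and the CYP11A1 gene with identifier ENSDARG00000092696. Since EE2 and control values chose the members, those values are described here without a test.

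All fish were of the AB strain, and all libraries came from total RNA of male gonads after depletion of ribosomal RNA. Diploid and triploid fish, each with and without EE2, made 4 groups of 4 libraries. How much EE2 was given and for how long, how old the fish were, how triploidy was induced and how many animals made up a library is not stated in the sources used here. The p-values therefore speak only to the spread among these libraries, which may be technical. Triploid EE2 replicate 2 is called an outlier in its own title. It was not used by the rule, which left that group with 3 libraries.

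Library totals ran from 7052508 to 17369549 read pairs. The libraries held testis RNA. A list of 28 spermatid and sperm flagellum genes summed to between 5663 and 9920 CPM in the libraries used. A list of 17 oocyte genes summed to between 192 and 417 CPM. A list of 14 exocrine pancreas and gut genes summed to 113 to 10399 CPM in diploid controls and 89.7 to 7068 in diploid EE2. In triploids its sum was 102 to 402 CPM in controls and 34.6 to 297 under EE2. Whether some libraries also held RNA of other tissue was not tested. Diploid control replicate 1 stood apart, with 13.3% of its read pairs in the signal recognition particle RNA rn7sl1. Correlations between same-numbered replicates were near 0, so replicate numbers were not used as pairs.

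Estrogens given to male fish are known to act on the pituitary as well as on the testis, and to lower the synthesis of androgens by Leydig cells, the steroid-producing cells between the tubules. Steroid synthesis starts in mitochondria, where the side-chain cleavage enzyme Cyp11a1 turns cholesterol into pregnenolone. The other known roles among the members are of different kinds. Bicarbonate cotransporters and aquaporins move ions and water across membranes and so set the pH and volume of fluids. Synaptotagmins and related proteins with C2 domains bind calcium at membranes and, in neurons and endocrine cells, act in the release of vesicles. Jun N-terminal kinases carry stress and cytokine signals to transcription factors. Neuroligins, SLITRK proteins and Nogo receptors are cell-surface proteins best known from synapses and axons.

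The members lay on 17 chromosomes, and 16 had a symbol other than a clone name. Their EE2 to control ratio ran from 0.222 to 0.577 in diploids, with a median of 0.357, and from 0.149 to 0.590 in triploids, with a median of 0.419. The medians over all 19184 genes with enough RNA were 1.03 and 1.02. The ratio was lower in diploids for 12 members and lower in triploids for 11. It was at most 0.3 in both ploidies for 4 members, si:dkeyp-77h1.4, slc17a7b, syt5a and rtn4r. In whole-testis RNA, fewer cells of a type and less RNA per cell cannot be told apart.

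**Figure D1:**
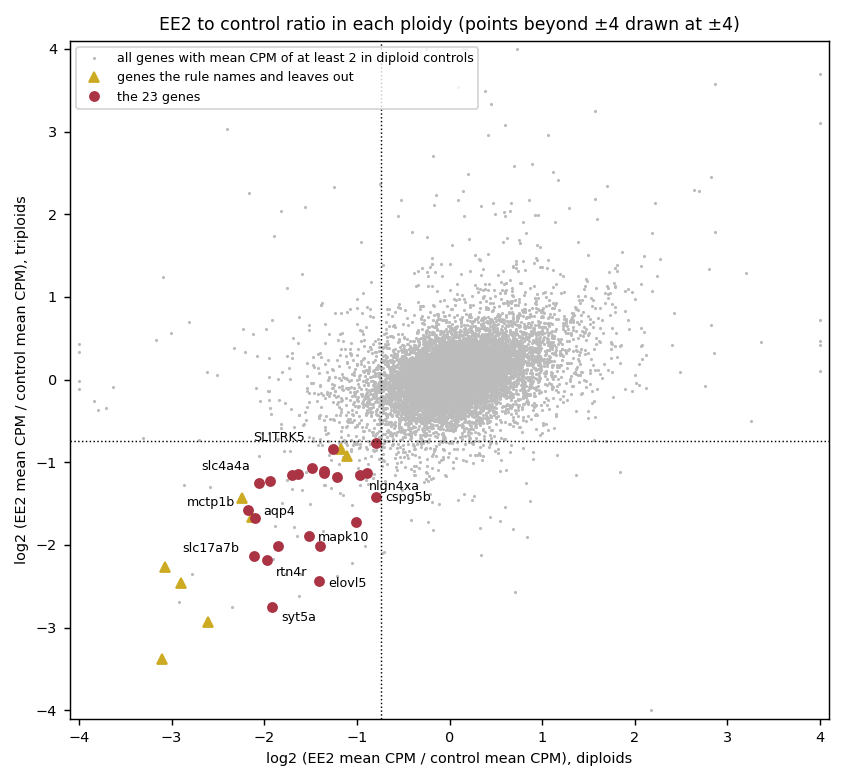
Each point is a gene, placed by the log2 of its EE2 to control ratio of mean CPM in diploids (horizontal axis) and in triploids (vertical axis). Grey points are the 19184 genes with a mean of at least 2 CPM in diploid controls, red circles are the 23 members, yellow triangles are the 8 genes left out by name, and dotted lines mark a ratio of 0.6. The members fill the lower left corner, from SLITRK5 and AQP8 near the lines to syt5a, at 0.265 and 0.149.

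Just inside the limit on the ratio lay si:zfos-1056e6.1, with a larger ratio of 0.590, and, among members with a symbol other than a clone name, cspg5b with 0.577, SLITRK5 with 0.561 and AQP8 with 0.541. Of the genes kept out by the ratio alone, clone names aside, the nearest to the limit were ugt1b5, at 0.602 in diploids, and hspa8b and myh7ba, both at 0.618 in triploids. The condition on overlap was met by a narrow margin in some members. In serpinh1b the lowest triploid control, at 4.171 CPM, was barely above the highest triploid EE2 library, at 4.168 CPM. Over the members, the lowest control was a median of 1.29 times the highest EE2 library in diploids and 1.48 times in triploids. Without 1 library in turn, 334 of 345 member ratios stayed at most 0.6, and 4 members went above it: si:zfos-1056e6.1, cspg5b, AQP8 and SLITRK5, up to 0.692.

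Among the transporters and water channels, slc4a4a encodes an electrogenic sodium bicarbonate cotransporter (chr5:45746457-45877387, minus strand, in the GRCz11 coordinates of the deposited table, as for all genes here). Replicates 1 to 4 of the diploid controls held 57.7, 89.3, 77.8 and 122 CPM of slc4a4a, and those of diploid EE2 held 20.1, 26.6, 23.14 and 20.8 CPM. The triploid controls held 95.8, 61.8, 74.7 and 76.0 CPM, and triploid EE2 replicates 1, 3 and 4 held 38.2, 29.0 and 31.5 CPM. The groups were far apart in both ploidies, and the EE2 libraries of a ploidy lay close to each other. The mean went from 86.8 ± 27.0 (SD, n = 4) to 22.7 ± 2.94 CPM (n = 4) in diploids, a ratio of 0.261, and from 77.1 ± 14.05 (n = 4) to 32.9 ± 4.75 CPM (n = 3) in triploids, a ratio of 0.427.

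The gene aqp4 encodes a water channel known in mammals from glial cells (chr20:18163355-18186784, plus strand). Its diploid controls held 16.2, 9.39, 45.0 and 18.5 CPM, and its diploid EE2 libraries 3.83, 4.57, 4.95 and 7.36 CPM. Triploid controls reached 45.3, 25.999, 17.9 and 60.6 CPM of aqp4, against 8.90, 12.6 and 13.7 CPM in triploid EE2. Diploid control replicate 3 was well above the other diploid controls. The aqp4 ratios were 0.233 in diploids and 0.313 in triploids, and the diploid ratio became 0.352 without diploid control replicate 3.

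The gene slc17a7b encodes a vesicular glutamate transporter, the kind that loads glutamate into synaptic vesicles (chr24:38557989-38579066, minus strand). Its values were 11.49, 7.47, 25.3 and 12.3 CPM in diploid controls and 0.993, 3.72, 6.51 and 1.93 CPM in diploid EE2. In triploids they were 18.6, 5.68, 5.13 and 27.0 CPM in controls and 1.91, 4.89 and 2.86 CPM under EE2. The controls varied widely, with a pair of triploid controls hardly above the highest triploid EE2 library, and the ratios were 0.232 and 0.228. AQP8, named by its human symbol in the table, encodes a second water channel (chr12:20366109-20373058, minus strand). AQP8 was at 3.41 ± 1.01 CPM in diploid controls and 1.84 ± 0.950 under EE2 (n = 4 each), and at 3.01 ± 0.571 (n = 4) and 1.38 ± 0.551 CPM (n = 3) in triploids. Its diploid EE2 mean rested in part on replicate 2, at 0.426 CPM, where the other replicates held 2.17 to 2.41 CPM. Without that library the ratio was 0.679, and without diploid control replicate 4 it was 0.631.

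Of the calcium-sensing membrane proteins, syt5a encodes a synaptotagmin (chr3:32142382-32151167, plus strand). Diploid controls held 2.48, 3.13, 8.97 and 3.22 CPM of syt5a and diploid EE2 libraries 1.56, 1.096, 1.09 and 0.965 CPM. Its triploid controls held 6.45, 10.6, 3.98 and 8.69 CPM, and triploid EE2 replicates 1, 3 and 4 held 0.848, 1.197 and 1.27 CPM. All 7 EE2 libraries sat in a narrow band below 1.6 CPM, at 8 to 19 read pairs each, while controls spread upward from it. The triploid ratio of 0.149 was the lowest of any member in triploids. The diploid ratio of 0.265 became 0.400 without diploid control replicate 3.

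The gene mctp1b encodes a protein with several C2 domains and membrane-spanning segments (chr10:43862964-43928937, minus strand). In diploid controls its values were 19.1, 38.7, 33.6 and 146 CPM, and in diploid EE2 11.8, 12.5, 14.8 and 13.5 CPM. Triploid controls stood at 39.3, 60.2, 32.8 and 26.8 CPM of mctp1b and triploid EE2 libraries at 10.4, 12.6 and 17.1 CPM. The 146 CPM of diploid control replicate 4 was far above every other library. It set the diploid ratio, which was 0.222 with that library and 0.431 without it. The triploid ratio was 0.336.

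**Figure D2:**
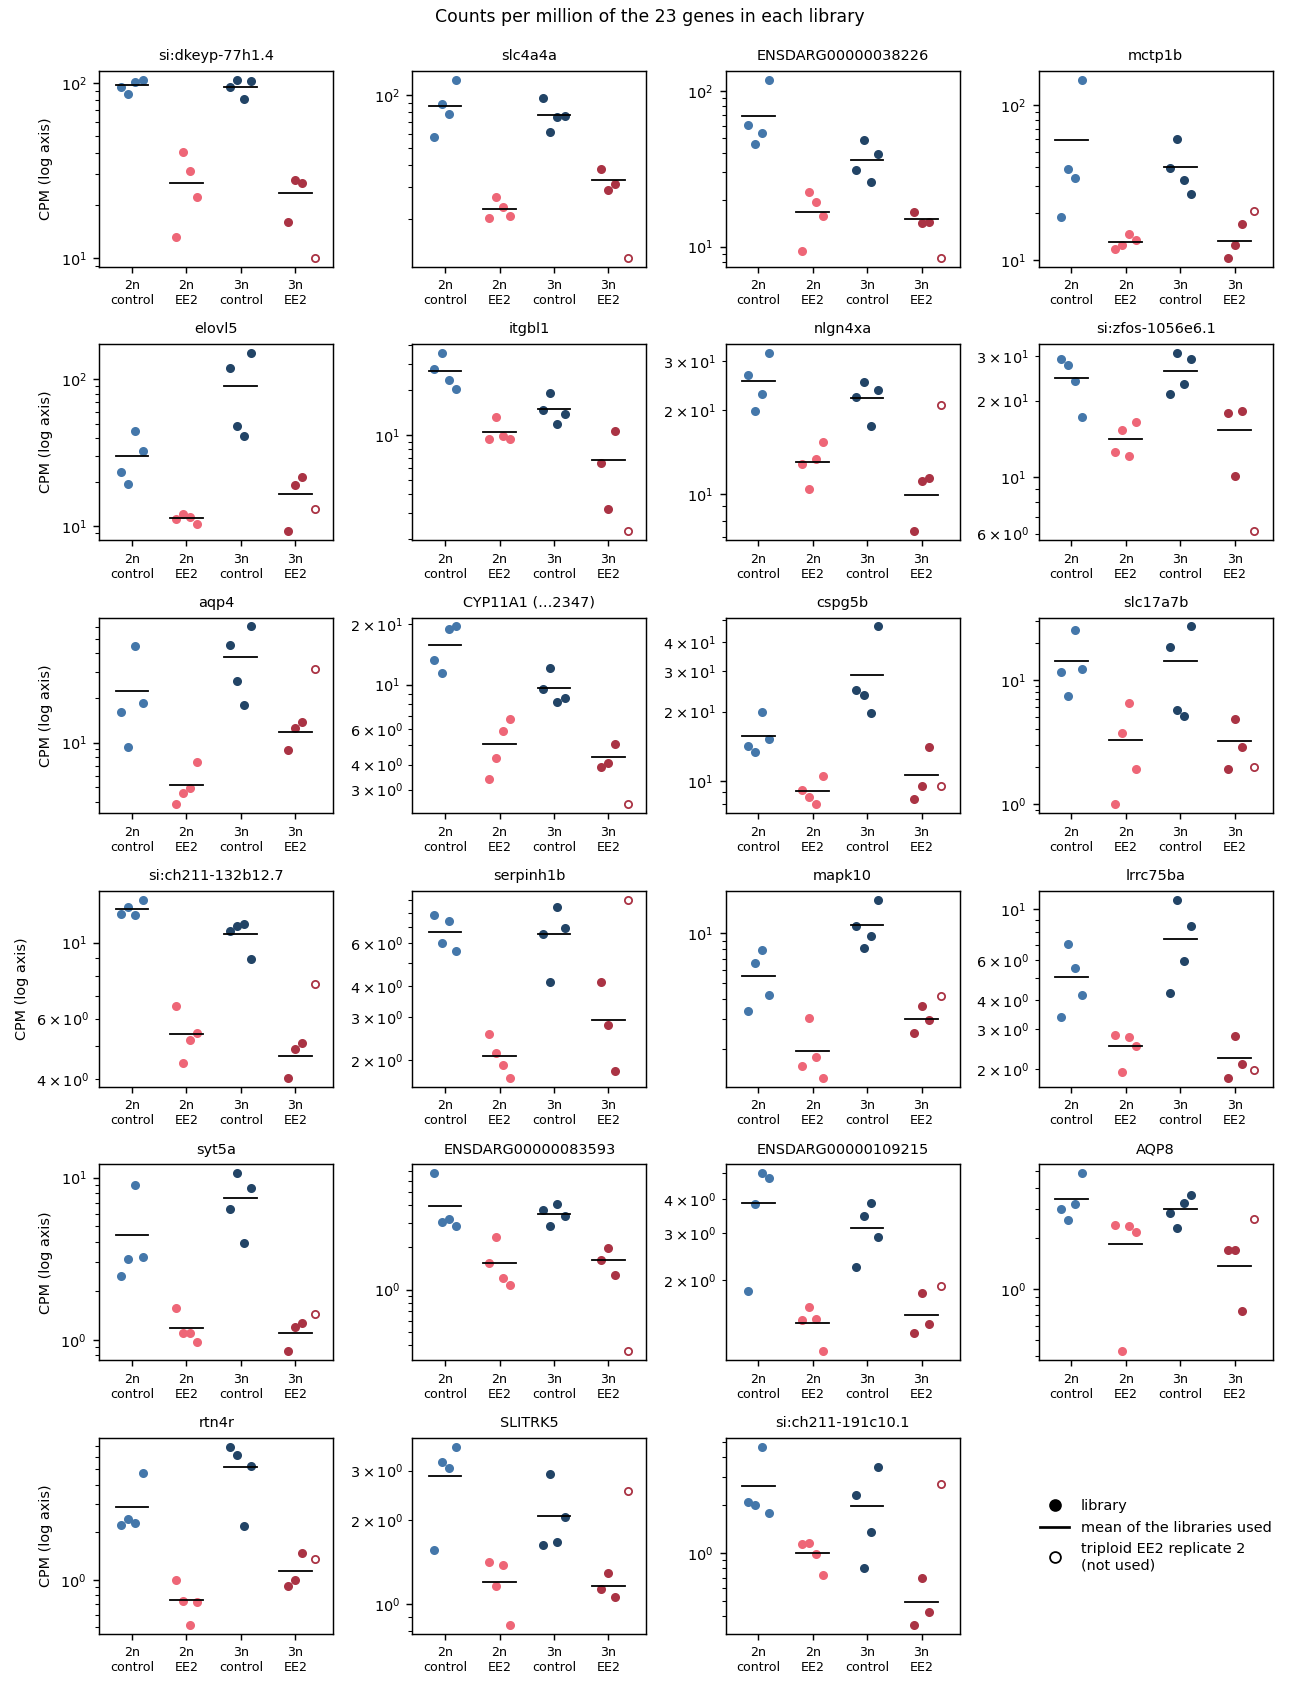
CPM of each of the 23 members in each library, on log axes that differ between panels, with 2n for diploid and 3n for triploid. Filled points are libraries used by the rule, lines are their means, and the open point is triploid EE2 replicate 2. Filled EE2 points lie below every control point of the same ploidy, as the rule requires, and the width of the gap differs: it is wide in slc4a4a and si:dkeyp-77h1.4 and nearly closed in serpinh1b, at 4.171 against 4.168 CPM in triploids.

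The kinase mapk10, known in mammals as JNK3, lies at chr21:9576176-9713292 on the plus strand. Its values were 3.39, 6.58, 7.84 and 4.23 CPM in diploid controls and 1.56, 3.05, 1.78 and 1.33 CPM in diploid EE2. Triploid controls held 11.01, 8.16, 9.63 and 15.9 CPM of mapk10 and triploid EE2 libraries 2.47, 3.59 and 2.97 CPM. The lowest diploid control was close to the highest diploid EE2 library, and the triploid groups were well apart. The ratios were 0.350 in diploids and 0.270 in triploids.

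The neural cell-surface members lay below the median member in RNA per length, SLITRK5 and rtn4r furthest. Read pairs per exon length, scaled to the same total in each library (TPM), allow genes to be set side by side, and in diploid controls their mean was 6.61 ± 2.48 TPM for cspg5b, 6.32 ± 1.86 for nlgn4xa, 1.55 ± 0.696 for SLITRK5 and 1.25 ± 0.644 for rtn4r (SD, n = 4 each). At 1.25 TPM, rtn4r lay above only 3.83% of the genes with enough RNA. The median member was at 7.40 TPM and the median of those genes at 10.5 TPM. Low levels were not particular to this group: serpinh1b was at 2.16 TPM and mapk10 at 2.71 TPM. The highest mean of any gene in diploid controls was 339789 TPM, and through the common total it bears on the TPM of all others. An SD in TPM can therefore be wider than in CPM. In diploid controls si:ch211-132b12.7 was at 12.5 ± 0.590 CPM and 5.36 ± 1.36 TPM.

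The gene rtn4r encodes the Nogo receptor, which in mammals binds myelin proteins that limit axon growth (chr5:10765611-10946379, minus strand). Its diploid values were 2.22, 2.41, 2.27 and 4.73 CPM in controls and 0.993, 0.731, 0.518 and 0.724 CPM under EE2. The triploid values were 6.97, 6.21, 2.197 and 5.23 CPM in controls and 0.918, 0.998 and 1.48 CPM under EE2. The EE2 libraries held only 6 to 14 read pairs each and lay together below all controls. The ratios of rtn4r were 0.255 and 0.220.

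The neuroligin gene nlgn4xa (chr1:32521469-32693950, plus strand), whose protein bridges synapses, was at 25.4 ± 5.27 CPM in diploid controls and 12.95 ± 2.02 under EE2 (n = 4 each), and at 22.1 ± 3.32 (n = 4) and 9.92 ± 2.23 CPM (n = 3) in triploids. For cspg5b (chr19:19278082-19339337, minus strand), a brain chondroitin sulfate proteoglycan, the diploid means were 15.7 ± 2.95 and 9.06 ± 1.09 CPM and the triploid means 28.7 ± 12.2 and 10.7 ± 3.01 CPM. SLITRK5 (chr15:3089212-3096150, minus strand), named by its human symbol, encodes a leucine-rich repeat protein of synapses. Its diploid means were 2.87 ± 0.907 and 1.2005 ± 0.264 CPM and its triploid means 2.07 ± 0.601 and 1.16 ± 0.122 CPM. These 3 genes had the smallest differences of the group, with ratios from 0.372 to 0.577. Without diploid control replicate 3 the diploid ratio of cspg5b was 0.635, and without triploid control replicate 2 the triploid ratio of SLITRK5 was 0.650.

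Among the enzymes was a CYP11A1 gene, ENSDARG00000002347 (chr25:22319940-22335283, plus strand), which lies 8397 bases from the copy that was left out by name. The diploid controls held 13.3, 11.4, 18.9 and 19.5 CPM of ENSDARG00000002347 and the diploid EE2 libraries 3.40, 4.32, 5.87 and 6.76 CPM. In triploids the controls held 9.55, 12.2, 8.16 and 8.59 CPM and the EE2 libraries 3.89, 4.09 and 5.09 CPM. The groups were clearly apart in both ploidies, with ratios of 0.323 and 0.453. The left-out copy went from 32.8 to 7.496 CPM in diploids and from 17.7 to 5.58 CPM in triploids. Read pairs that align to both copies are not counted by the default of the counting tool, so the split of RNA between them is uncertain.

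The gene elovl5 encodes an elongase of polyunsaturated fatty acids (chr13:2394264-2417409, plus strand). Diploid controls held 23.5, 19.4, 44.2 and 32.5 CPM of elovl5, and diploid EE2 libraries 11.2, 12.1, 11.51 and 10.3 CPM. Its triploid controls held 120, 48.1, 41.2 and 152 CPM and its triploid EE2 libraries 9.25, 18.96 and 21.7 CPM. The EE2 libraries of both ploidies lay low, and triploid controls fell into a higher and a lower pair. The ratio was 0.377 in diploids and 0.184 in triploids.

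Of the matrix-related members, itgbl1 encodes a secreted protein with repeats like those of integrin beta chains (chr9:31752628-31833565, plus strand). It was at 26.5 ± 6.57 CPM in diploid controls and 10.4 ± 1.86 under EE2 (n = 4 each), and at 14.8 ± 3.02 (n = 4) and 6.76 ± 3.71 CPM (n = 3) in triploids. Among the triploid EE2 libraries itgbl1 ranged from 3.19 to 10.6 CPM, the latter close to the lowest control, at 11.7 CPM. The collagen chaperone gene serpinh1b, or hsp47 (chr15:29382454-29388012, minus strand), went from 6.71 ± 1.07 to 2.07 ± 0.370 CPM in diploids and from 6.52 ± 1.78 to 2.92 ± 1.19 CPM in triploids. Their ratios were 0.391 and 0.308 in diploids and 0.458 and 0.448 in triploids.

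No role is given here for the other 8 members, of which lrrc75ba encodes a leucine-rich repeat protein, 4 carry clone names and 3 have an identifier only. Values of those 7 are given because all members are accounted for, outside the rule for naming genes. The most abundant of them by CPM was si:dkeyp-77h1.4 (chr16:10346277-10369298, plus strand), with 94.5, 86.8, 101 and 105 CPM in diploid controls and 13.2, 40.1, 31.4 and 22.2 CPM under EE2. In triploids it had 94.3, 103, 81.3 and 102 CPM in controls and 16.04, 27.9 and 26.9 CPM under EE2. Controls of both ploidies lay close together, and the lowest was more than 2 times the highest EE2 library in either ploidy.

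Per length the highest member was ENSDARG00000038226 (chr12:47945664-47959911, plus strand), at 106 ± 59.8 TPM in diploid controls, with ratios of 0.241 and 0.419. For lrrc75ba the ratios were 0.498 and 0.302. The other 5, si:zfos-1056e6.1, si:ch211-132b12.7, ENSDARG00000083593, ENSDARG00000109215 and si:ch211-191c10.1, had ratios from 0.357 to 0.576 in diploids and from 0.248 to 0.590 in triploids. In si:ch211-132b12.7 the diploid controls lay close together, at 12.04 to 13.3 CPM in diploid controls against 4.45 to 6.52 under EE2. ENSDARG00000083593 has 137 bases of exon inside the span of the ribosomal protein gene rpl3 on the same strand, so its count is uncertain.

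The members did not all vary together among the controls. Diploid control replicate 3 and triploid control replicate 4 were the highest controls of 6 members, aqp4, cspg5b, elovl5, mapk10, si:ch211-191c10.1 and slc17a7b. A second group of 6, CYP11A1 of ENSDARG00000002347, ENSDARG00000038226, SLITRK5, mctp1b, nlgn4xa and si:dkeyp-77h1.4, was highest in diploid control replicate 4 and triploid control replicate 2. These groupings were seen in the data and have no test. Among the used triploid EE2 libraries, replicate 1 was the lowest for 15 of 23 members. How often other genes shared these patterns was not counted, so they may not be particular to the members. The median coefficient of variation of a member was 31.7% in diploid controls, 20.0% in diploid EE2, 27.3% in triploid controls and 22.5% in triploid EE2.

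**Figure D3:**
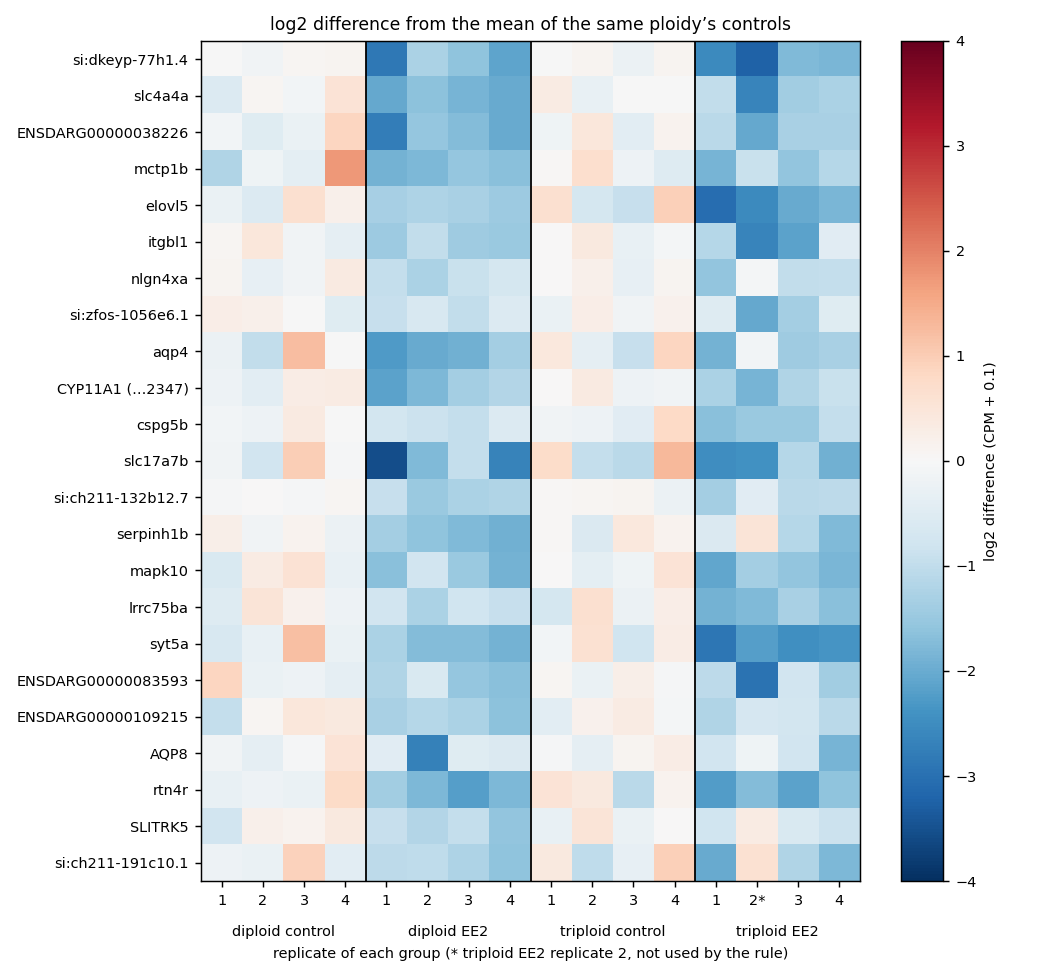
Colour gives the log2 difference of each member (rows, by mean CPM) in each library (columns) from the mean of the controls of the same ploidy, after adding 0.1 CPM. EE2 columns are blue in nearly every row, and the starred triploid EE2 replicate 2, which the rule did not use, is blue in most rows and near white or red in nlgn4xa, aqp4, serpinh1b, AQP8, SLITRK5 and si:ch211-191c10.1. Red cells among the controls mark single high libraries, such as diploid control replicate 4 for mctp1b.

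Triploid EE2 replicate 2 was not used by the rule, but the triploid controls it is set against here are those that chose the members. The share over all genes is therefore not what unchanged genes chosen in this way would give. In this library 17 of 23 members lay below every triploid control, where 31.0% of the 19184 genes with enough RNA did so and 37.6% lay above every control. The median ratio to the triploid control mean was 0.267 over the members and 1.02 over all of those genes, and 15 members were at or below 0.6. The library held 12.02 CPM of slc4a4a, 1.45 of syt5a, 4.16 of mapk10, 13.1 of elovl5 and 2.53 of CYP11A1 of ENSDARG00000002347. Values of 6 members were not below the controls. These were nlgn4xa at 20.9 CPM, aqp4 at 31.2, AQP8 at 2.62, SLITRK5 at 2.53 and si:ch211-191c10.1 at 2.71, within the range of the triploid controls, and serpinh1b at 9.04, above it. With 1 library there is no test. Its cell content also stood apart: 19 macrophage and neutrophil genes summed to 2735 CPM in it and to between 323 and 468 CPM in the other triploid EE2 libraries, and 23 meiosis genes to 4056 CPM against 6252 to 7912. Their part in these values was not tested.

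Triploid and diploid controls were compared to ask whether the members differed with ploidy without exposure, a contrast the rule did not use. The control values themselves did enter its floor, its limits on the ratio and its condition on overlap. The floor was set on diploid controls only. Values over all genes are therefore not what genes without a ploidy difference, chosen in this way, would give. In edgeR's quasi-likelihood test with Benjamini-Hochberg adjustment over 23007 genes, 1 of 23 members was higher in triploids, where 0.574% of all genes were called higher, and 0 were lower, where 2.16% were called lower. At an unadjusted p under 0.05 there were 7 members, against 17.6% of all genes. DESeq2 called 3 members lower and 3 higher, against 3.56% and 1.79% of the genes it tested. The median log2 difference was -0.21 over the members and -0.04 over all genes, with 15 members negative and 8 positive.

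The member called was elovl5, at 29.9 ± 11.01 CPM in diploid controls and 90.3 ± 54.3 CPM in triploid controls (n = 4 each), with log2 1.55 ± 0.39 and an edgeR adjusted p of 0.0495. Its lowest triploid control, at 41.2 CPM, lay below the highest diploid control, at 44.2 CPM, and the other 3 lay above it. Leaving out 1 library at a time removed the call in 12 of 15 cases, and 5 of 7 other alternatives removed it, with adjusted p from 0.00225 to 0.16. All 4 triploid controls were above all diploid controls for mapk10 (log2 0.99 ± 0.28, edgeR adjusted p = 0.0837), and all were below for itgbl1 (-0.92 ± 0.28, edgeR adjusted p = 0.11) and si:ch211-132b12.7 (-0.31 ± 0.15, edgeR adjusted p = 0.284). That made 3 of 23 members with groups apart, against 10.2% of all genes. CYP11A1 of ENSDARG00000002347 was at 15.8 ± 4.02 and 9.61 ± 1.79 CPM (log2 -0.77 ± 0.22, edgeR adjusted p = 0.079), and edgeR called it lower without diploid EE2 replicate 1 (adjusted p = 0.0467) or without diploid control replicate 2 (adjusted p = 0.0256). ENSDARG00000038226 was called lower without diploid control replicate 2 (edgeR adjusted p = 0.047), mapk10 higher without diploid EE2 replicate 2 (0.0484) and syt5a higher without diploid control replicate 3 (0.0454).

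**Figure D4:**
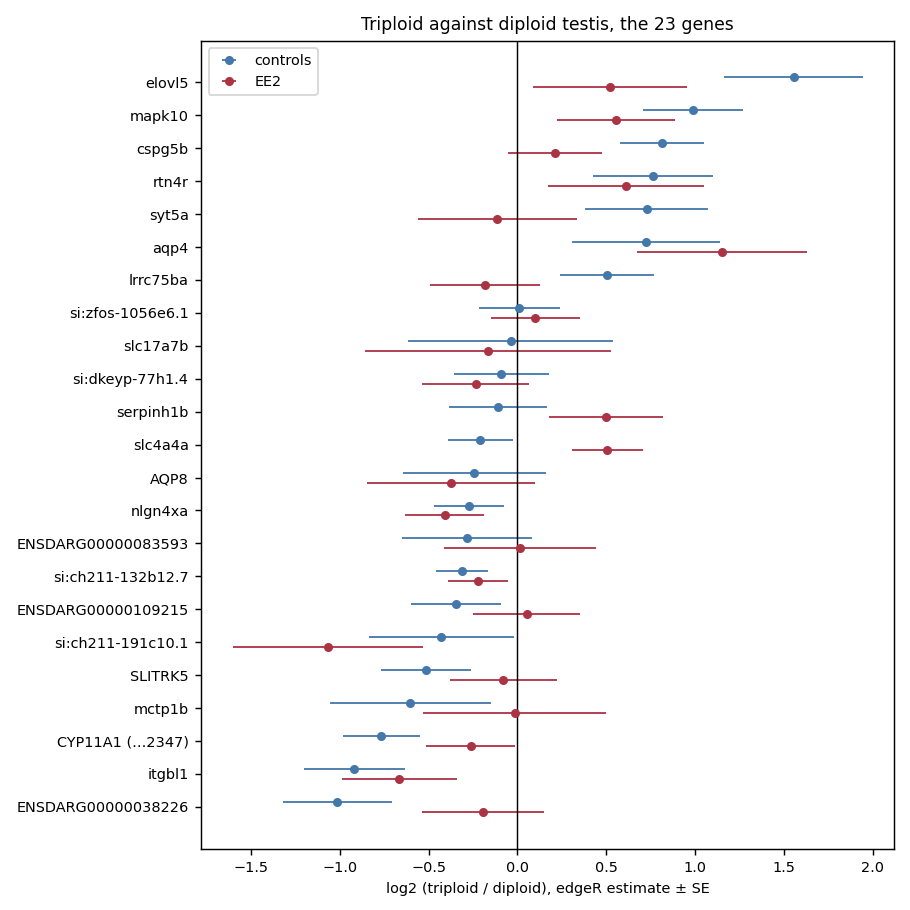
Points are edgeR estimates of the log2 difference between triploid and diploid testis for each member, with bars of 1 SE, in controls (blue) and under EE2 (red), ordered by the value in controls. In controls the estimates run from -1.01 for ENSDARG00000038226 to 1.55 for elovl5, and most bars of both colours lie within 1 of the line at 0.

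Under EE2 the same question was asked of the exposed libraries. Their values had entered the rule's limit on the ratio and its condition on overlap, which held them low in both ploidies. The shares over all genes are therefore not what genes without a ploidy difference, chosen in this way, would give. No member passed edgeR's test in either direction, where 4.77% of all genes were called lower and 1.05% higher in triploids. DESeq2 likewise called 0, against 6.79% lower and 2.36% higher of the genes it tested, and 2 members had an unadjusted p under 0.05, against 19.6% of all genes. These were slc4a4a, at 22.7 ± 2.94 CPM in diploid EE2 (n = 4) and 32.9 ± 4.75 in triploid EE2 (n = 3), with log2 0.51 ± 0.20 and an edgeR adjusted p of 0.167, and aqp4, at 5.18 ± 1.53 and 11.7 ± 2.50 CPM, with log2 1.15 ± 0.48 and an edgeR adjusted p of 0.194. Both had every triploid EE2 library above every diploid one, and si:ch211-191c10.1 had every one below. Those 3 of 23 compare with 20.4% of all genes whose groups did not overlap. The estimate for elovl5 was 0.52 ± 0.43. The median over the members was -0.08 on the log2 scale.

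Many zebrafish genes are kept as pairs of copies from a genome duplication in the ancestor of teleost fishes. The copy with the other letter was read for 8 members, with the 3 other JNK genes for mapk10, which are older relatives. These 11 genes were chosen after the members were known. The other CYP11A1 gene, described above, is not among them: it met the rule in both ploidies, at 0.229 and 0.315, and was left out by name. None of the 11 met the rule in diploids or in triploids, but only 0.897% and 0.589% of all genes with enough RNA did so. Of the 11, syt5b and slc17a7a were below the floor on the mean. The EE2 to control ratios of the 11 ran from 0.452 to 1.498 in diploids and from 0.510 to 1.56 in triploids. In edgeR's test 1 of 11 was called lower in diploids, where 0.422% of all genes were, and 0 in triploids, where DESeq2 also called 0 and 0 had an unadjusted p under 0.05. The difference in response between a member and its copy was not tested.

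The copy called was nlgn4xb, at 3.94 ± 1.77 CPM in diploid controls and 1.78 ± 0.429 under EE2 (n = 4 each), with log2 -1.17 ± 0.28 and an edgeR adjusted p of 0.0423, not reached in 11 of 15 omissions of 1 library. In triploids it was at 2.05 ± 0.311 CPM in controls and 2.83 ± 0.643 under EE2. The collagen chaperone copy serpinh1a, unlike serpinh1b, had a higher mean under EE2 in diploids, at 26.3 ± 3.17 CPM against 17.6 ± 3.02 in controls, with log2 0.52 ± 0.14 and an edgeR adjusted p of 0.0738, and DESeq2 called it. The bicarbonate cotransporter copy slc4a4b was at 7.13 ± 4.13 and 7.86 ± 3.59 CPM in diploids and at 14.6 ± 9.63 and 7.42 ± 2.25 CPM in triploids. Its SD in triploid controls was larger than the difference of the means. The other JNK genes had more RNA than mapk10 by CPM and ratios nearer 1: mapk8a at 1.04 and 1.09, mapk8b at 1.23 and 0.934, and mapk9 at 1.03 and 0.929 in diploids and triploids.

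**Figure D5:**
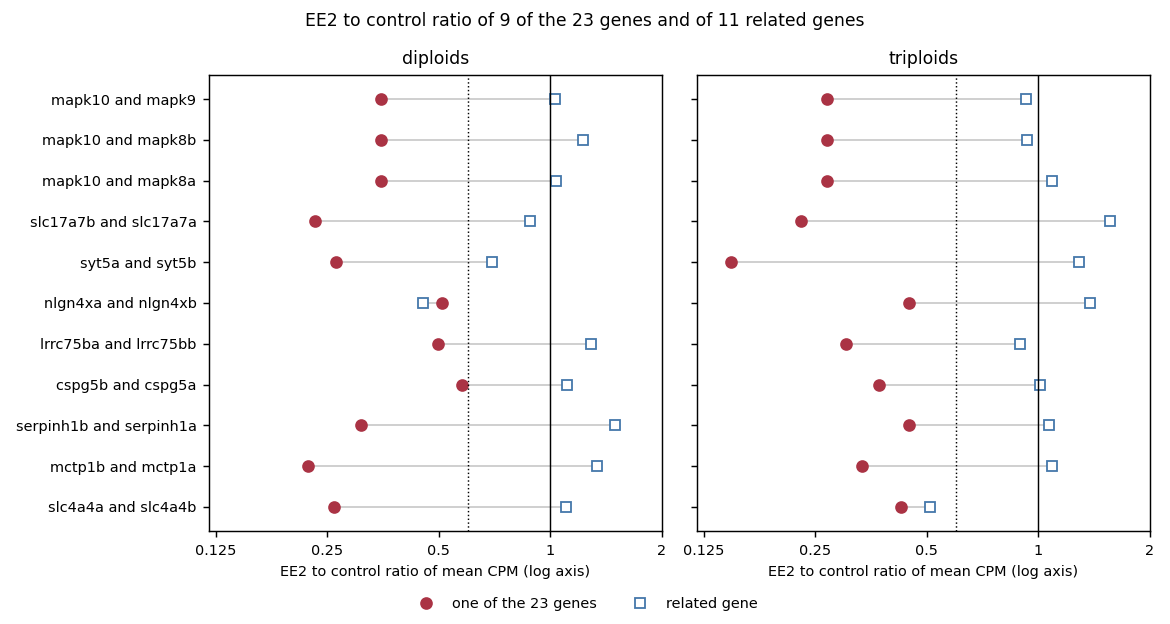
EE2 to control ratio of mean CPM, on log axes, for 9 members (red circles) and 11 related genes (open squares), in diploids (left) and triploids (right), with dotted lines at 0.6. The squares lie to the right of the circles in all lines except nlgn4xa and nlgn4xb in diploids, and they are near or above 1 in most lines, with nlgn4xb at 0.452 in diploids and slc4a4b at 0.510 in triploids as the lowest.

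Other genes of the members' pathways were counted in lists that leave the members out. For EE2, the shares of all genes called by DESeq2 or with an unadjusted p under 0.05 are not given here. Such counts, in these lists and in the cell lists below, therefore have no background beside them. The Leydig cell and steroid synthesis list had 24 genes tested, of which 6 had met the rule in both ploidies and been left out by name, so those 6 get no test. Of the other 18, edgeR called 3 lower and 0 higher under EE2 in diploids, where 0.422% of all genes were lower and 1.94% higher. They were fdx1b, nr5a1a and cyp17a2, named after their values were seen. The fdx1b protein passes electrons to mitochondrial steroid enzymes, and nr5a1a encodes a transcription factor of steroid-producing cells. DESeq2 called 5 of the 18 lower in diploids. In triploids edgeR and DESeq2 called 0 of the 18 in either direction, where 0.0435% of all genes were lower and 0.0609% higher in edgeR, and 4 were lower and 0 higher at an unadjusted p under 0.05. The median log2 difference of the 18 was -0.06 in diploids and -0.43 in triploids, against -0.01 and 0.01 over all genes.

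The lists around the other members, and the cell lists below, were counted in the same way. Over all genes edgeR called 0.422% lower and 1.94% higher in diploids, and 0.0435% lower and 0.0609% higher in triploids. Of 64 other synaptotagmin and exocytosis genes, 2 were lower and 1 was higher in diploids, and edgeR called 0 in triploids. The higher one was rims2a of ENSDARG00000101606 (log2 1.30, edgeR adjusted p = 0.0125, and up to 0.054 on omission of 1 library). The lower ones were mctp2b, a relative of mctp1b, which went from 74.1 ± 13.8 to 39.8 ± 2.60 CPM in diploids (n = 4 each, log2 -0.95 ± 0.14, edgeR adjusted p = 0.00191), and the vesicle fusion gene vamp2 (log2 -0.51 ± 0.10, edgeR adjusted p = 0.0166), whose call was not reached without diploid control replicate 3 (0.0507) or with triploid EE2 replicate 2 included (0.0971). In triploids mctp2b was at 70.4 ± 15.5 CPM in controls and 76.1 ± 6.29 CPM under EE2. At an unadjusted p under 0.05 in edgeR, the exocytosis list held 7 lower and 5 higher genes in diploids. Of 42 other bicarbonate and acid-base transport genes, 1 was lower in diploids, the bicarbonate cotransporter slc4a5a (log2 -1.12 ± 0.22, edgeR adjusted p = 0.0134, and 0.0508 without diploid control replicate 2), and edgeR called 0 higher, where DESeq2 called 2 lower and 2 higher.

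Of 52 other genes of JNK and related MAP kinase pathways, edgeR called 0 lower and 3 higher in diploids, and DESeq2 called 1 lower and 6 higher. These were dusp6 (log2 1.21 ± 0.19, edgeR adjusted p = 0.0029) and dusp2 (1.59 ± 0.31, edgeR adjusted p = 0.0134), which encode phosphatases of MAP kinases, and jun (1.23 ± 0.22, edgeR adjusted p = 0.0075), which encodes a transcription factor that these kinases act on. For dusp2 the adjusted p was over the threshold without diploid EE2 replicate 3 (0.0564), without diploid control replicate 2 (0.0551) and with triploid EE2 replicate 2 included (0.0678) in edgeR. The mapk10 mean was lower in the same EE2 libraries, as described above. Of 48 cyclic AMP signalling genes edgeR called 0 lower and 2 higher in diploids, with 2 lower and 4 higher at an unadjusted p under 0.05. DESeq2 called 0 lower and 3 higher of them. In triploids edgeR called 0 genes of the exocytosis, bicarbonate, MAP kinase and cyclic AMP lists in either direction, and DESeq2 called 1, of the bicarbonate list. At an unadjusted p under 0.05 the 4 lists then held 2, 3, 0 and 1 lower genes and 1, 2, 2 and 2 higher ones. Their median log2 differences lay between -0.16 and 0.08 in both ploidies.

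Several members are best known from nerve tissue, so markers of nerve cells and of other cells a testis can hold were read in the same libraries. A list of 34 neuron and Schwann cell genes had a sum of 333 to 468 CPM in diploid controls, 394 to 444 in diploid EE2, 385 to 469 in triploid controls, and 401 to 432 in exposed triploids, ranges that overlap. Of its 31 genes tested, edgeR and DESeq2 each called 0 lower and 1 higher in diploids, the myelin gene mpz in edgeR (log2 1.49 ± 0.35, adjusted p = 0.0408), and 0 in triploids. At an unadjusted p under 0.05, 5 were lower and 3 higher in diploids, and 2 lower and 0 higher in triploids, with no share over all genes to set beside them. The median log2 difference of the 31 was -0.18 in diploids and -0.05 in triploids, against -0.01 and 0.01 over all genes. The 6 Leydig cell and steroid synthesis genes left out by name, which the rule had found low, had a sum of 959 to 2782 CPM in diploid controls and 133 to 494 under EE2, then 925 to 1528 in triploid controls and 152 to 289 under EE2. The other 19 genes of that list had a sum of 504 to 901 CPM in diploid controls and 453 to 547 under EE2, ranges that overlap. In triploids their sum was 464.3 to 634 CPM in controls and 288 to 462.6 under EE2, ranges that were only just apart. No gene of either list was at 0 in every library. The part of Leydig cell RNA in the lower values of the members was not tested.

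Some of the other cell lists were higher under EE2 in diploids and others were not. The median log2 difference was largest for the 6 erythrocyte genes tested, at 2.54. It was 0.89 for smooth muscle and peritubular genes, 0.82 for endothelium and 0.76 for macrophages and neutrophils. It was -0.27 for meiosis and -0.43 for exocrine pancreas and gut. The erythrocyte list of 7 genes had a sum of 67.9 to 110 CPM in diploid controls and 121 to 1051 in diploid EE2. In triploids its median was 0.16, and its sum was 118 to 169 CPM in controls and 101 to 133 under EE2. The smooth muscle and peritubular list of 19 genes had a sum of 924 to 1200 CPM in diploid controls and 2340 to 3207 in diploid EE2, with 9 genes higher and 0 lower in edgeR. In triploids its sum was 792 to 983 CPM in controls and 1272 to 1376 under EE2. There edgeR called 0 genes and DESeq2 called 6 higher. At an unadjusted p under 0.05, 7 were higher and 1 lower in triploids. Of 20 endothelial genes, 6 were higher in diploids and 1 in triploids. Of 23 meiosis genes edgeR called 0. At an unadjusted p under 0.05, 7 were lower and 1 higher in diploids, and 3 lower and 0 higher in triploids. The sum of the meiosis genes was 6250 to 7100 CPM in diploid controls and 4968 to 6870 in diploid EE2. Among 16 estrogen-responsive genes 7 were higher in diploids and 1 in triploids, and among 45 circadian clock genes 4 were lower and 7 higher in diploids. Only the members were taken out of these lists. A gene left out by name, such as nr1d1, may be among the lower clock genes, and the rule had already found it low. In diploids 1 gene each was higher among the spermatogonia, Sertoli cell, macrophage and neutrophil, and erythrocyte lists, and DESeq2 called 9 higher in the macrophage and neutrophil list. Spermatid, oocyte, liver, and exocrine pancreas and gut genes gave 0 edgeR calls in either ploidy, and at an unadjusted p under 0.05 these held 2, 2, 0 and 0 genes in diploids. The pancreas and gut list summed to 113 CPM in the lowest and 10399 CPM in the highest diploid control. In diploid EE2 its sum was 89.7 to 7068 CPM. The part of these shifts in the members' values was not tested.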

How the data were processed

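The deposited table held counts of read pairs per gene. Per the file headers, the authors made them with featureCounts 2.0.6 on STAR alignments, counting pairs on the reverse strand over exons with the Ensembl 113 annotation of GRCz11. The sources used here do not state the STAR version or its settings. The table's other column, in other units, was the deposited exon length in bases, used for TPM. CPM was the count scaled by the library total. Errors of CPM and TPM are SD over libraries. Errors of log2 differences are an approximate SE, the size of the edgeR estimate over the square root of its F statistic.

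Tests used edgeR 4.0.16 in R 4.3.3 on 15 libraries, without triploid EE2 replicate 2: filterByExpr by group, TMM factors, robust glmQLFit with 1 mean per group, the quasi-likelihood F test and Benjamini-Hochberg adjustment over 23007 genes, with calls at an adjusted p under 0.05. The script was tested on simulated data. Alternatives were DESeq2 1.42.0, limma-voom (limma 3.58.1), DESeq2's size factors, no filter on low counts, the left-out library included, omission of libraries, a replicate block and other limits of the rule.

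Symbols in human spelling were given the zebrafish name only where a single RefSeq gene of that name lay on the same chromosome, so AQP8, SLITRK5 and CYP11A1 were kept. Of 590 symbols in 19 lists, 536 matched a gene. The members, lists and tests were chosen with earlier results of these data known. Members named with values were syt5a, slc4a4a and mapk10, the 12 with the most CPM in diploid controls, the 6 lowest ratios in each ploidy, those called in a ploidy comparison, those in a list and the 3 on either side of the ratio limit, clone names aside. Same-numbered replicates correlated at -0.17 to 0.10 in their deviations from group means, so numbers do not pair samples.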

Additional observations from a re-analysis of the deposited data

Results flagged for a closer look

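Single libraries stood far from the other 3 of their group for 7 of 69 groups of 4 libraries of a member, by the gap to the nearest library over the whole range. The limit would flag about 1 in 20 groups of normally distributed values. These are CPM values of genes chosen on the same groups, so that rate need not apply to them. Among diploid controls, mctp1b was high in replicate 4, at 145.9 CPM against 38.7 in the next library, and rtn4r was high in the same library, at 4.73 CPM against 2.41. In diploid control replicate 3, syt5a was at 8.97 CPM against 3.22 in the next library, and si:ch211-191c10.1 at 4.66 CPM against 2.09. ENSDARG00000083593 was at 6.79 CPM in diploid control replicate 1 and at 3.18 in the next. In diploid EE2 replicate 2, itgbl1 was high, at 13.2 CPM against 9.73, and AQP8 was low, at 0.426 CPM against 2.17. No group of triploid controls met this criterion.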

How the results depend on the processing

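The rule found 23 genes as stated and between 16 and 32 when the limit on the ratio was 0.5 or 0.7, the floor 1 or 5 CPM, CPM scaled by TMM factors, or triploid EE2 replicate 2 included (18 genes, 17 of them shared). It found 105 without the condition on overlap and 35 without diploid control 1 and diploid EE2 1 together, 22 of them shared. Omission of 1 library gave 23 to 34. For ploidy in controls, members called lower were 0 in edgeR and 3 in DESeq2, and 0 to 2 on omission of 1 library. Members called higher were 1 in edgeR and 3 in DESeq2, 0 with limma-voom, no filter, the replicate block, triploid EE2 replicate 2 included or both first replicates left out, and 0 to 1 on omission of 1 library. Under EE2, members called were 0 in each alternative run. The counts of list genes that follow include genes left out by name, which the rule had already found low. In the main fit, 5 of the diploid calls and 3 of the triploid calls were such genes of the Leydig cell list. For those genes the counts are no test. Of the list genes, 55 were called for EE2 in diploids, 85 by DESeq2, and 34 (without diploid EE2 3; 36 without diploid control 3) to 61 on omission of 1 library. In triploids 5 were called, 17 by DESeq2, 2 by limma-voom, 2 with the replicate block, 9 with triploid EE2 replicate 2, 11 without both first replicates, and 0 (without triploid EE2 1, triploid EE2 3 or triploid control 1) to 11 (without diploid control 1) on omission of 1 library. No direction reversed among these results. The cause of these shifts was not tested. The replicate block changed no other of these counts by over 1.5 times. Members with few read pairs, such as syt5a and rtn4r under EE2, limit the precision of their ratios.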
